A study of Mus musculus with 8 samples.

Results

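The HMG and HP1 chromatin proteins described here are the products of 9 genes, Hmgb1, Hmgb2, Hmgb3, Hmgn1, Hmgn2, Hmgn3, Cbx1, Cbx3 and Cbx5, out of 56748 genes listed in the count table. They were taken by name, and the group was selected on the measured counts of these libraries, because Hmgb2 and Cbx5 were higher in knockout than in wild-type monocytes. The knockout against wild-type values of the members are therefore given as a description, with no test. All 9 members passed the filter on low counts that kept 11222 genes.

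HMGB proteins carry HMG boxes that bend DNA and ease the assembly of protein complexes on chromatin, and HMGB1 released from cells is an alarmin that signals through pattern recognition receptors. HMGN proteins bind the nucleosome itself and compete with linker histone H1, which loosens chromatin. HP1 proteins, encoded by Cbx1 (HP1 beta), Cbx3 (HP1 gamma) and Cbx5 (HP1 alpha), read methylated lysine 9 of histone H3 through a chromodomain and hold heterochromatin together.

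The libraries were made from mRNA of spleen monocytes with high Ly6C, the classical inflammatory subset, sorted on day 7 after an aneurysm had been induced. The groups were 4 libraries of wild-type mice (WT 1 to WT 4) and 4 libraries of mice lacking Olfr2, an olfactory receptor gene (KO 1 to KO 4), and both groups carry the aneurysm treatment. The labels give neither strain nor age, nor do they say how the aneurysm was induced, how the allele was made or whether libraries stem from different mice. The p-values therefore cover the spread from library to library, which may be technical. The column numbers of the table fall in a 1600 series (WT 1, WT 2, KO 1 and KO 2) and a 1700 series (WT 3, WT 4, KO 3 and KO 4), whose meaning the labels do not state.

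Total counts lay between 16111725 and 21728794 per library. Values are given as CPM, counts scaled to the TMM-adjusted library size. Olfr2 had 0 counts in all 8 libraries, which allows up to 0.138 to 0.186 CPM for counting error only, so that it could not check the genotype labels. Classical monocyte genes were high in every library, with Ly6c2 between 4058 and 6378 CPM and Ccr2 between 1049 and 2260 CPM. Among markers of other cells, the 6 of T cells summed to at most 1.73 CPM and the 4 of platelets to at most 0.37 CPM in any library. The B cell markers summed to 16.3 to 35.6 CPM in WT and 17.2 to 33.7 CPM in KO, nearly all from Cd79b, with Ebf1 and Pax5 at 0. The NK cell markers summed to 7.57 to 13.1 and 7.32 to 12.3 CPM, with Ncr1 at 0 and Nkg7 called higher in KO (edgeR adjusted p = 0.0433). The plasmacytoid dendritic cell markers summed to 189 to 229 and 97.2 to 145 CPM, mostly from Bst2, which was called lower in KO (edgeR adjusted p = 0.0377), with Siglech at 0. Sums were 191 to 436 and 66.5 to 495 CPM for conventional dendritic cells, 463 to 665 and 523 to 655 CPM for red pulp macrophages, and 4.16 to 10.97 and 6.18 to 26.6 CPM for erythroid cells. Neutrophil and progenitor markers are given with the members' results, and the part of any of these cells in the members' values was not tested. In bulk samples such as these, fewer cells of a type and less RNA per cell cannot be told apart.

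The promoters of the 4 members with the largest difference between KO and WT are shown, since the results turn on these genes. Promoters of cell cycle genes often carry CCAAT boxes, which NF-Y binds, and the cell cycle genes homology region, or CHR, written here as TTTGAA. The sequences come from RefSeq on GRCm38.p6, run 5′ to 3′ on the strand of the gene from 250 bases before to 50 bases after the annotated start, and have CCAAT boxes and CHR elements of either strand in capitals. The windows are chr8:57511593-57511892 on the plus strand for Hmgb2, chrX:71555667-71555966 on the plus strand for Hmgb3, chr4:133967942-133968241 on the minus strand for Hmgn2 and chr15:103239803-103240102 on the minus strand for Cbx5, the upstream of the pair of starts listed for that gene.
Hmgb2: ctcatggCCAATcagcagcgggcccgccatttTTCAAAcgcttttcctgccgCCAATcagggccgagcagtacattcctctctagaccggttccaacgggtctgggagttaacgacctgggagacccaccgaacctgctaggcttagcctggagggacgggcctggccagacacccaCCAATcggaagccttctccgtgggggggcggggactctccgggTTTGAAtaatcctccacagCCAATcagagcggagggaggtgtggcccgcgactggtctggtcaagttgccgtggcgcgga
Hmgb3: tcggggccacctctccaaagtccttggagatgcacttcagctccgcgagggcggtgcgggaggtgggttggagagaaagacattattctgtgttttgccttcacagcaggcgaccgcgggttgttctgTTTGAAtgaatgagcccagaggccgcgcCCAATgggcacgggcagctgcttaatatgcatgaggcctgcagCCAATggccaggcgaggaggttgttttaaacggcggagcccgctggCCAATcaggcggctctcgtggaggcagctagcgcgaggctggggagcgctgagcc
Hmgn2: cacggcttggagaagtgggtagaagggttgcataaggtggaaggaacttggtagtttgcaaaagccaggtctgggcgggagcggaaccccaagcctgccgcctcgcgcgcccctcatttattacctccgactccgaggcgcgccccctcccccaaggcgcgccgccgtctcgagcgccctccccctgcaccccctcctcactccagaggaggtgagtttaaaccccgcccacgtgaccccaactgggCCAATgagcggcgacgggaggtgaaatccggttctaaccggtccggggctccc
Cbx5: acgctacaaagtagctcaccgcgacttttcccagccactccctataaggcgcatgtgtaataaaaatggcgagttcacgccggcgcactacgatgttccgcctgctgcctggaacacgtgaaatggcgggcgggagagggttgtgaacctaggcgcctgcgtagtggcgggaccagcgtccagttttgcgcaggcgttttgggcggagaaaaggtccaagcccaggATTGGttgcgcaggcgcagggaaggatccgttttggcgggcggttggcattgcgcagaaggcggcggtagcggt

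Hmgb2 held 4 CCAAT boxes, whose first bases lay at -243, -198, -73 and -11 from the start, and 2 CHR elements at -218 and -30. Of 32851 mouse promoters of the same length, 37.4% held at least 1 CCAAT on either strand and 1.06% held 4 or more, while 17.9% held a CHR element and 2.31% held 2 or more. Hmgb3 held 3 CCAAT boxes at -94, -51 and -5 and 1 CHR element at -122, and 3.37% of promoters held 3 or more CCAAT boxes. Hmgn2 and the upstream start of Cbx5 held 1 CCAAT box each, at -3 and, on the opposite strand, at -24.

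Promoters were listed for 8 of the 9 members, 11 windows in all. Hmgb1 (chr5:149053008-149053307, minus strand) held 3 CCAAT boxes at -86, -42 and -11, and Hmgn1 (chr16:96127676-96127975, minus strand) held 2, at -81 and -21. Neither a CCAAT box nor a CHR element was found in the windows of Cbx1 and Cbx3, in the second window of Hmgb1 or in that of Cbx5. The 4 words TTTCCCGC, TTTCGCGC, TTTGCCGC and TTTGGCGC of the E2F family, searched on both strands, occurred only in the upstream window of Cbx3, which held TTTGGCGC at -168, and in 2.26% of all promoters. The motifs were chosen with the sequences in view, a match describes letters and not binding, and a missing match says only that these letters were not in the window.

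Hmgb2 had the highest level of the 9 genes when counts were divided by the merged exon length. In WT libraries it held 100, 131, 113 and 134 CPM per kilobase, against means of 30.2 ± 6.14 (SD, n = 4) for Hmgn2 and 27.3 ± 3.02 for Hmgb1. By this length, the ranges of Hmgn2 (24.1 to 35.8) and Hmgb1 (24.4 to 31.4) overlapped, while Hmgb2 lay above both in every library. Cbx1, Hmgn1 and Hmgn3 followed in WT with means of 4.14 ± 0.45, 4.09 ± 0.56 and 3.18 ± 0.94 CPM per kilobase, again with overlapping ranges. Hmgb3 (1.05 ± 0.38), Cbx3 (0.99 ± 0.29) and Cbx5 (0.43 ± 0.10) were the lowest. In WT, Hmgb2, Hmgn2 and Hmgb1 kept ranks 1 to 3 with the longest coding transcript or the coding sequence as the length. The order of the lower ranks depended on that choice. The overlap of Hmgn2 and Hmgb1 in WT was also lost. By the longest coding transcript they held 58.2 to 86.7 and 43.2 to 55.5 CPM per kilobase. By the coding sequence they held 273 to 406 and 190 to 244 CPM per kilobase.

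**Figure D1:**
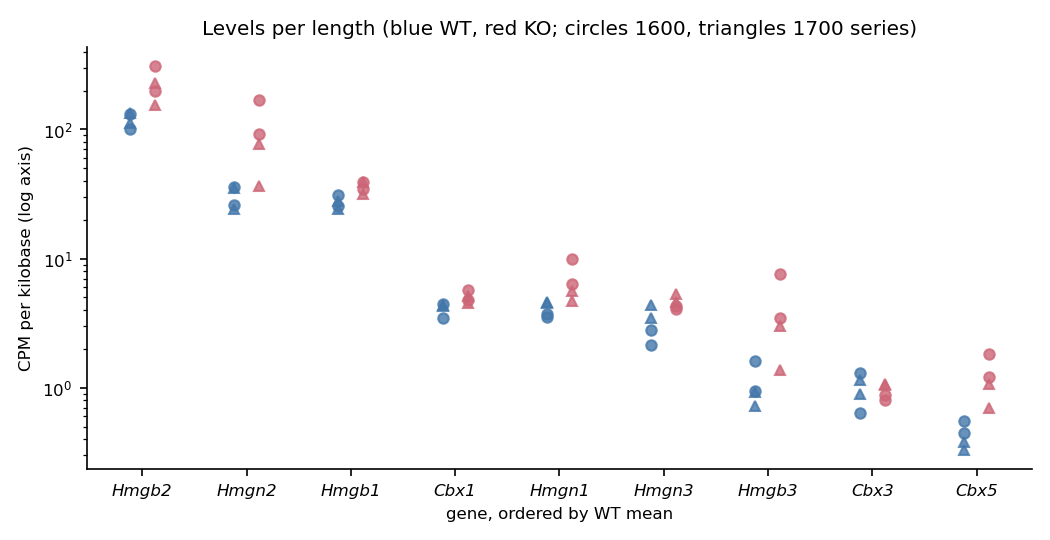
Each point is the level of a gene in 1 library in CPM per kilobase of merged exons on a log axis, with WT in blue, KO in red, circles for the 1600 series and triangles for the 1700 series. Hmgb2 lay above every other gene in WT, at 100 to 134, and Cbx5 was lowest in WT, at 0.33 to 0.56.

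Within the HMGB family the balance of counts lay with Hmgb2. It took 71.9% ± 2.03 of HMGB counts in WT and 77.3% ± 2.88 in KO (SD, n = 4 each), while Hmgb1 took 27.6% ± 1.93 and 21.8% ± 3.28. Hmgn2 took 82.6% ± 3.96 of HMGN counts in WT and 88.9% ± 4.44 in KO. Among the HP1 genes Cbx1 held most counts, 64.5% ± 7.66 in WT and 56.9% ± 2.87 in KO, and the share of Cbx5 was 14.0% ± 3.19 and 27.7% ± 6.76. These shares compare counts, to which a longer transcript gives more. Like the levels per length, they leave out reads counted in pseudogene copies, described below. With the copies added, Hmgb1 averaged 266 CPM and Hmgb2 397 CPM in WT, and 372 and 749 CPM in KO.

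Hmgb2 (ENSMUSG00000054717; chromosome 8, 57511907 to 57515999, plus strand), which is linked to proliferating and lymphoid cells, held 301, 392, 338 and 403 CPM in WT 1 to WT 4 and 595, 928, 683 and 467 CPM in KO 1 to KO 4. Every KO library lay above every WT library, with KO 2 the highest and KO 4 the closest to WT. The means were 359 ± 47.7 and 668 ± 195 CPM, a KO minus WT difference of 0.90 ± 0.18 on the log2 scale (SE of the fit).

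Hmgb1 (ENSMUSG00000066551; chromosome 5, 149046702 to 149184489, minus strand), the most widely expressed member of its family, held 129, 158, 123 and 139 CPM in WT and 175, 198, 196 and 159 CPM in KO. The groups did not overlap, but KO 4 lay only just above WT 2. The difference was 0.41 ± 0.12 (log2, SE).

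Hmgb3 (ENSMUSG00000015217; chromosome X, 71555918 to 71560676, plus strand), known from haematopoietic progenitors, was scarce in WT at 2.11, 3.58, 2.05 and 1.61 CPM, and held 7.79, 16.9, 6.77 and 3.06 CPM in KO. KO 4 lay below WT 2, so that the groups overlapped, although the log2 difference of 1.86 ± 0.48 was the largest of the 9 members. KO 2 held the highest level of the 8 libraries and WT 4 the lowest.

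Among the HMGN genes, Hmgn2 (ENSMUSG00000003038; chromosome 4, 133964738 to 133968650, minus strand) held 79.1, 110, 108 and 73.7 CPM in WT and 281, 518, 236 and 112 CPM in KO. All KO libraries were above WT, KO 4 by little, and KO 2 again stood highest. The difference was 1.63 ± 0.44 (log2, SE).

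Hmgn1 (ENSMUSG00000040681; chromosome 16, 96120618 to 96127729, minus strand) held 11.3, 11.9, 14.6 and 14.8 CPM in WT and 20.6, 31.7, 17.9 and 15.0 CPM in KO. KO 4 lay next to WT 4 and WT 3, and the difference was 0.69 ± 0.22 (log2, SE). Hmgn3 (ENSMUSG00000066456; chromosome 9, 83109948 to 83146685, minus strand) held 5.24, 3.98, 8.11 and 6.45 CPM in WT and 7.67, 8.06, 9.95 and 8.64 CPM in KO. Its groups overlapped through WT 3, with a difference of 0.53 ± 0.22.

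Of the HP1 genes, Cbx5 (ENSMUSG00000009575; chromosome 15, 103191544 to 103239816, minus strand) held 4.01, 5.01, 2.97 and 3.41 CPM in WT and 10.9, 16.4, 9.67 and 6.32 CPM in KO. The groups did not overlap, and KO 4 was the KO library nearest to WT. The means were 3.85 ± 0.88 and 10.8 ± 4.18 CPM, a difference of 1.48 ± 0.27 (log2, SE).

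Cbx1 (ENSMUSG00000018666; chromosome 11, 96789127 to 96808640, plus strand) held 19.1, 14.9, 18.5 and 18.3 CPM in WT and 20.5, 24.5, 21.95 and 19.2 CPM in KO. KO 4 exceeded WT 1 by little, and the difference was 0.28 ± 0.15 (log2, SE). Cbx3 (ENSMUSG00000029836; chromosome 6, 51470360 to 51483704, plus strand) held 3.80, 7.76, 5.35 and 6.83 CPM in WT and 5.27, 4.80, 6.40 and 6.27 CPM in KO. Its KO values lay inside the WT range, with a difference of -0.06 ± 0.23.

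**Figure D2:**
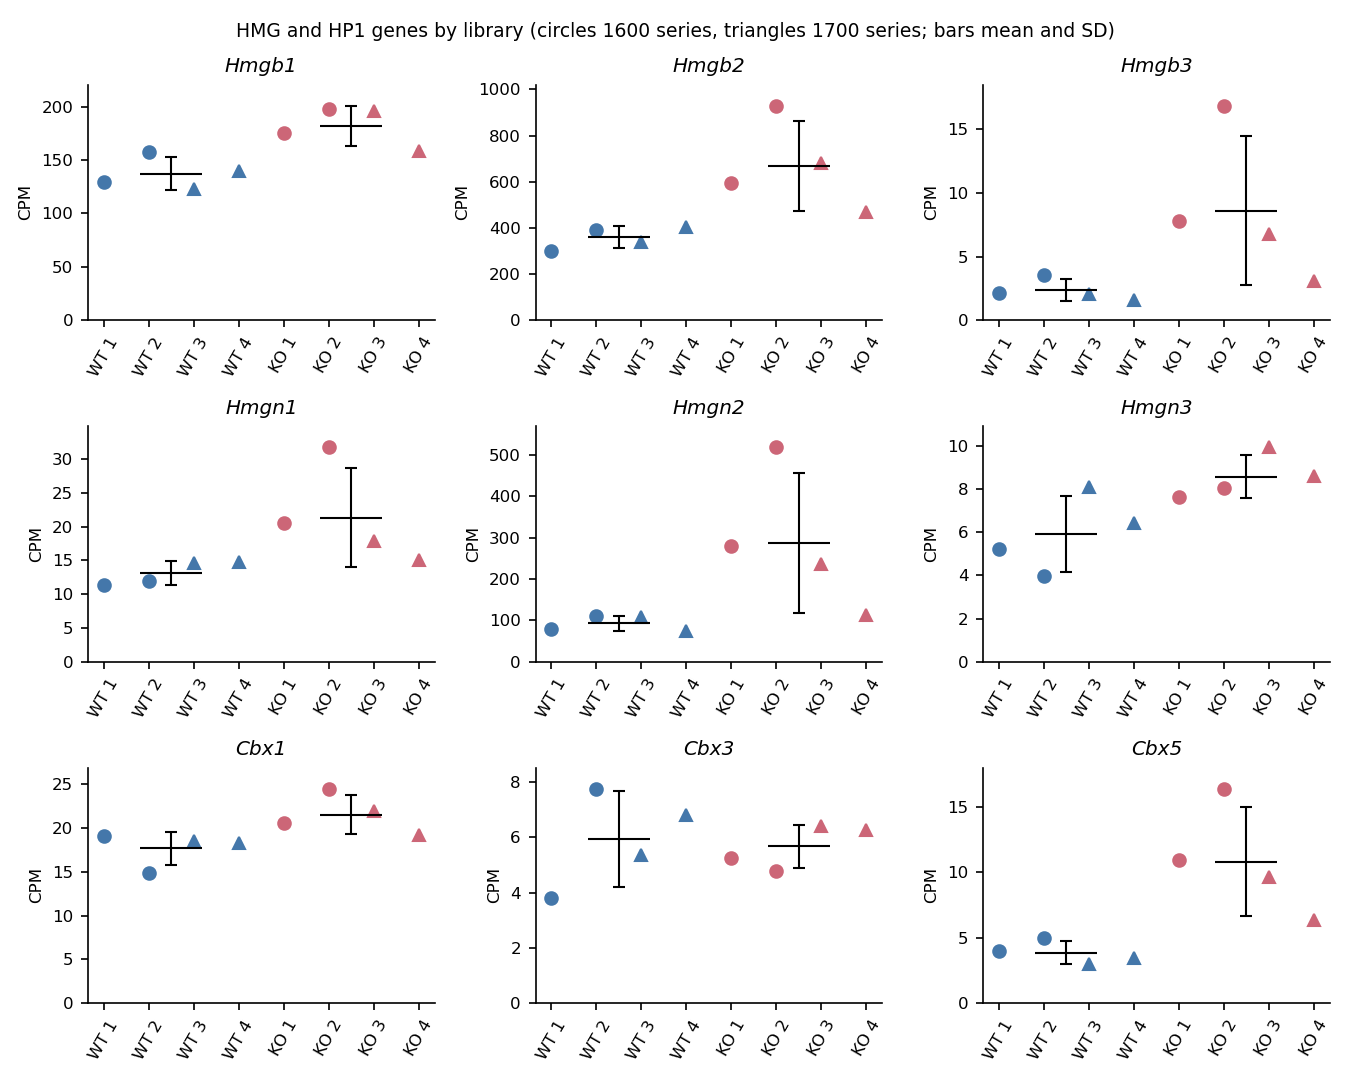
CPM of each member by library on axes that start at 0, with WT in blue, KO in red, circles for the 1600 series, triangles for the 1700 series and black bars for the mean and SD of 4 libraries. KO 2 was the highest KO library in 7 of the 9 panels and KO 4 the lowest in 7, and the KO libraries of Cbx3 lie within the range of WT.

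As a description of how the members were picked, 8 of 9 had a positive KO minus WT difference, with a median of 0.69 on the log2 scale against 0.00 over all tested genes. In 6 of 9 (Hmgb1, Hmgb2, Hmgn1, Hmgn2, Cbx1 and Cbx5) every KO library lay above every WT library, against 5.35% of all tested genes, and in 0 of 9 every KO library lay below, against 6.06%. The 2 that the choice rested on, Hmgb2 and Cbx5, were the members called higher in KO by edgeR at an adjusted p of 0.05, against 0.223% of tested genes, and neither share is evidence that is independent of the choice. That count of 2 was 6 with DESeq2, 0 with limma-voom and 0 with offsets for transcript length and GC content. Leaving out WT 1, WT 3, WT 4, KO 1, KO 2 or KO 3, each in turn, gave 0, without WT 2 it was 3 and without KO 4 it was 4. Over all tested genes, 325 of 11222 were called higher with DESeq2. Without WT 2 it was 142 of 11441 genes, and without KO 4 it was 139 of 11456. In the settings that gave 0 members, 0 of all tested genes were called higher too, apart from 4 of 11490 without KO 1. With no filter on low counts 3 members were called, against 214 of 21213 genes. The number series as covariate gave 3 members, against 101 of 11222 genes.

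The spread among KO libraries was uneven between members. The highest KO library held 5.499 times the lowest for Hmgb3, 4.61 times for Hmgn2, 2.59 times for Cbx5, 2.12 times for Hmgn1 and 1.99 times for Hmgb2. In WT the ratios of these 5 were 2.22, 1.49, 1.68, 1.31 and 1.34. The other 4 members were less spread in KO than in WT, with 1.25 against 1.28 for Hmgb1, 1.27 against 1.28 for Cbx1, 1.298 against 2.04 for Hmgn3 and 1.33 against 2.04 for Cbx3. Over all tested genes the median ratio was 1.48 in KO and 1.57 in WT. KO 2 was the highest KO library in 28.9% of all tested genes and KO 4 the lowest in 24.3%.

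The number series is a contrast that the choice of members did not use. With genotype in the model, 0 of 9 members differed between the 1700 and the 1600 series (edgeR quasi-likelihood test, Benjamini-Hochberg over 11222 genes), against 0.0% of all tested genes, of which 583 had an unadjusted p under 0.05. DESeq2 called 35 genes there and limma-voom 0. Cbx5 was lower in the 1700 series by -0.64 ± 0.22 on the log2 scale (edgeR unadjusted p = 0.0113, adjusted p = 0.906). For Hmgb3 the value was -1.02 ± 0.34 (edgeR unadjusted p = 0.0118, adjusted p = 0.906), and for Hmgn3 it was 0.45 ± 0.19 (edgeR unadjusted p = 0.0359, adjusted p = 0.939). None of these passed the correction.

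Within the 1600 series the KO minus WT difference was 1.14 ± 0.25 for Hmgb2, 2.11 ± 0.47 for Hmgb3, 2.08 ± 0.50 for Hmgn2 and 1.59 ± 0.30 for Cbx5 (log2, SE, 2 libraries per genotype). Within the 1700 series the same genes gave 0.63 ± 0.25, 1.42 ± 0.50, 0.94 ± 0.49 and 1.32 ± 0.31. Hmgb1 gave 0.38 ± 0.16 and 0.44 ± 0.16. The interaction of genotype and series called 0 of 9 members (edgeR, adjusted p of 0.05), against 0.784% of tested genes. The smallest p among the members was that of Hmgn1, whose difference was 1.17 ± 0.23 in the 1600 series and 0.16 ± 0.23 in the 1700 series, an interaction of -1.01 ± 0.32 (edgeR unadjusted p = 0.0091, adjusted p = 0.160). The interaction was negative for 7 of 9 members.

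**Figure D3:**
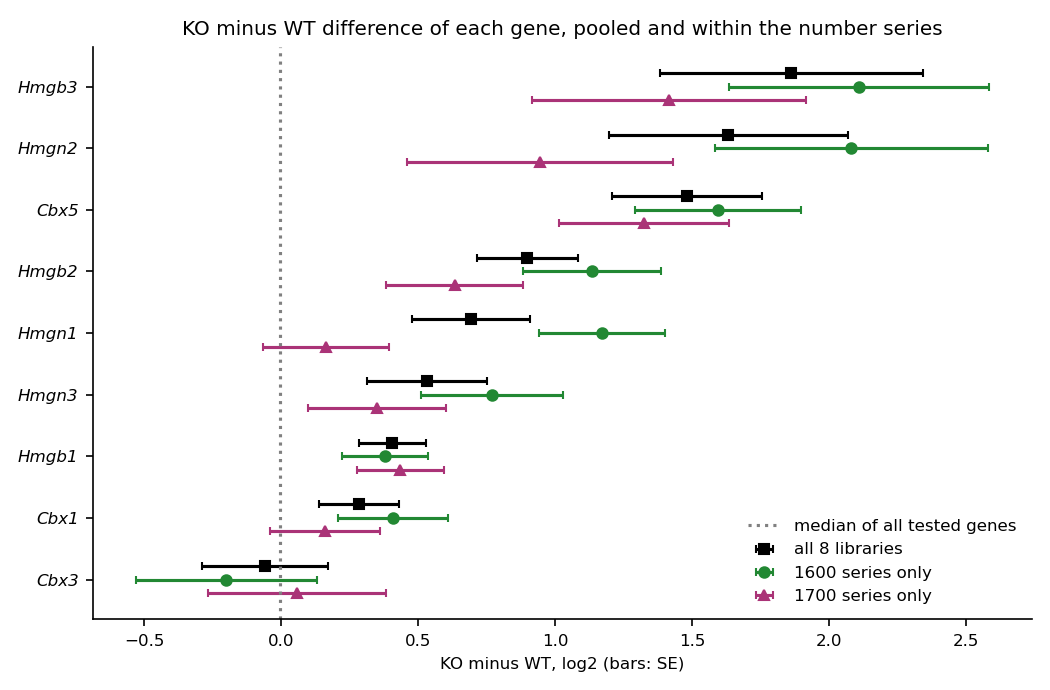
KO minus WT difference of each member on the log2 scale with its SE, from all 8 libraries (black squares), from the 1600 series (green circles) and from the 1700 series (purple triangles), with the median of all tested genes as a dotted line. Hmgn1 shows the widest gap relative to its errors, 1.17 against 0.16, and Hmgb1 gave nearly equal values, 0.38 and 0.44.

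Hmgb1, Hmgb2 and Hmgn2 have processed pseudogenes, transcript copies inserted elsewhere in the genome, which the deposited counts keep as separate genes. How reads were divided between a gene and such copies was not examined, since reads were not used here. Copies were taken as genes with at least 95% identity to the member over at least 150 bases that are annotated as pseudogenes or named as one of the member, which held for Hmgn2-ps, annotated as protein coding. Hmgb1 had 45, of which 32 held a count, and together they held between 88.6% and 114% of the counts of Hmgb1 itself. Hmgb2 had 5 copies with 9.46% to 12.9% and Hmgn2 had 11 with 19.1% to 38.0%. No copy by this definition was found for Hmgn3, Cbx1 or Cbx5.

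The summed CPM of the Hmgb1 copies was 129 ± 9.48 in WT against 190 ± 28.6 in KO (SD, n = 4 each). Gm5518 held more than any other copy, 49.7 ± 3.82 and 74.2 ± 12.9 CPM. For Hmgb2 the main copy was Gm4739, at 36.9 ± 7.47 and 77.2 ± 24.2 CPM, and for Hmgn2 it was Hmgn2-ps, at 20.5 ± 7.98 and 60.04 ± 35.5 CPM. All 18 copies with at least 100 counts had a positive KO minus WT difference, which is not independent of the members, since their reads may stem from the same transcripts. Copies below that cut were left out, and the next by count, Gm18194 and Hmgb1-ps8, went the other way. Gm18194 held 5, 25, 16 and 5 counts in WT and 4, 8, 18 and 7 in KO. Hmgb1-ps8 held 5, 1, 18 and 37 in WT and 9, 5, 3 and 5 in KO. With copies added to the member, the difference was 0.48 ± 0.12 for Hmgb1, 0.92 ± 0.19 for Hmgb2 and 1.61 ± 0.44 for Hmgn2 (log2, SE).

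**Figure D4:**
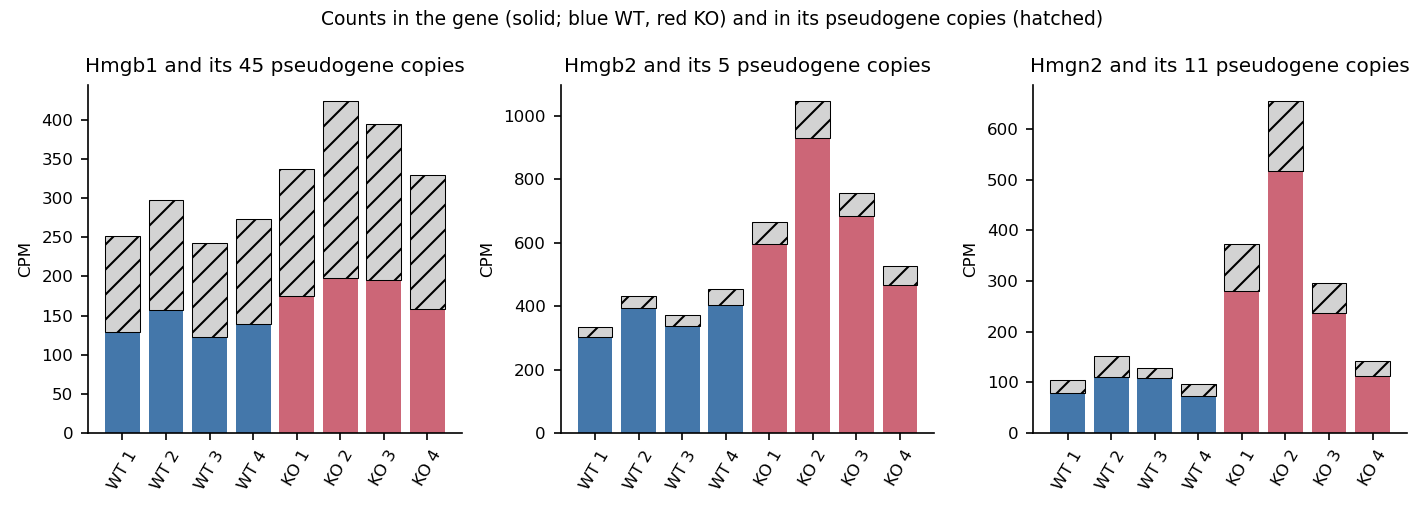
CPM of Hmgb1, Hmgb2 and Hmgn2 by library (solid bars, WT blue, KO red) with the summed CPM of their pseudogene copies stacked on top (hatched). For Hmgb1 the copies are about as high as the gene, 88.6% to 114% of it, and for Hmgb2 they are 9.46% to 12.9%.

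Transcripts of the members differ in length and base composition, on which the recovery of oligo-dT primed cDNA can depend. Cbx5 has a transcript of 8803 bases in the longest 10% of tested genes, whose median KO minus WT difference was -0.36, against 1.48 for Cbx5. Hmgb2 and Hmgb1, with GC contents of 38.7% and 40.1%, lay in the lowest 10% for GC, whose median was 0.12. With offsets for length and GC content, the difference was 1.78 ± 0.34 for Cbx5, 0.58 ± 0.20 for Hmgb2, 0.11 ± 0.11 for Hmgb1 and 0.07 ± 0.13 for Cbx1 (log2, SE).

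By the outer ends of the genes in GENCODE M21, Hmgb1, Cbx3 and Cbx5 each start close to a gene on the opposite strand. For Hmgb1 this end, at 149184489, lies outside its promoter windows described above, which end at 149053307 and 149051866. Uspl1 is therefore no neighbour of those windows. Hnrnpa1, an RNA-binding splicing factor whose start lies 616 bases from that of Cbx5, was at 45.2 ± 5.28 CPM in WT against 47.4 ± 4.95 in KO, a difference of 0.07 ± 0.13 (edgeR adjusted p = 0.811). Hnrnpa2b1, 466 bases from Cbx3, gave 0.10 ± 0.16 (edgeR adjusted p = 0.752) and Uspl1, 139 bases from the outer end of Hmgb1, 0.30 ± 0.19 (edgeR adjusted p = 0.375). None of the 3 neighbours passed the test. Exons of Hmgb1 also overlap Uspl1 and Mm2pr, and those of Hmgn3 overlap Gm2065 and Gm29054, and no source used here states whether the counting used strand.

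Other genes of the HP1 pathway were described by a list. Of 34 writers, readers, erasers and partners of HP1 heterochromatin, 29 were tested, and 0 were called higher and 1 lower in KO (against 0.223% and 0.838% of all tested genes), with a median difference of -0.04 against 0.00 over all genes. Differences ran from -1.30 to 2.50, 13 positive and 16 negative. DESeq2 called 1 higher (Uhrf1) and 4 lower (Atrx, Atf7ip, Ehmt2 and Smchd1), against 325 and 459 of 11222 tested genes. The gene that fell was Atrx, a chromatin remodeller that binds HP1 alpha and deposits histone H3.3, from 5.75 ± 2.08 to 2.32 ± 0.24 CPM, a difference of -1.30 ± 0.27 (edgeR adjusted p = 0.0432). That call was lost without WT 1, WT 3, WT 4, KO 1, KO 2 or KO 3, each in turn, with limma-voom and with offsets for length and GC content. Ehmt2, which methylates lysine 9 of histone H3, was at 4.17 ± 0.60 and 2.21 ± 0.19 CPM (edgeR adjusted p = 0.0535). The largest positive differences were those of Uhrf1, which reads methylated histone H3 and recruits Dnmt1 (2.50 ± 0.71, edgeR adjusted p = 0.0999), Sgo1, which guards sister chromatid cohesion (2.49 ± 0.78, edgeR adjusted p = 0.132), and Chaf1b, a subunit of the replication-linked histone chaperone CAF-1 (1.12 ± 0.41, edgeR adjusted p = 0.154). Suv39h1, the enzyme whose mark HP1 reads, was at 9.07 and 11.98 CPM on average (0.40 ± 0.18, edgeR adjusted p = 0.218).

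Of 23 other HMG-box, HMGA and HMGN genes 16 were tested and 0 passed in either direction, with a median of -0.09. DESeq2 called 1 higher (Ssrp1) and 1 lower (Pbrm1), against 325 and 459 of 11222 tested genes. The smallest p was that of Pbrm1, at 8.09 ± 2.41 CPM in WT against 4.38 ± 0.63 in KO (-0.88 ± 0.23, edgeR adjusted p = 0.0764). Ssrp1, the HMG-box subunit of the histone chaperone FACT, was at 15.0 ± 4.39 CPM in WT against 23.2 ± 1.94 in KO (edgeR adjusted p = 0.116), and Hmga1, an AT-hook protein, 19.4 and 17.0 CPM on average. Of the 5 polycomb chromobox genes, which share the chromodomain with HP1 but read methylated lysine 27, 3 were tested and 0 passed: the difference was -0.84 ± 0.26 for Cbx7 and -0.30 ± 0.20 for Cbx8 (log2, SE). Linker histones, with which HMGN proteins compete, gave 0 calls among 6 tested of 7, with a median of 0.03 that was -0.79 without KO 1 and KO 2.

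Receptors and partners of extracellular HMGB1 gave 0 calls among 11 tested of 14, with a median of 0.31. Tlr4, a receptor for HMGB1, averaged 30.9 CPM in WT against 38.8 in KO (0.33 ± 0.33, edgeR adjusted p = 0.601), and Tlr2 held 90.3 and 106 CPM (0.23 ± 0.25, edgeR adjusted p = 0.628). Ager, which encodes the receptor RAGE, was too low to test at 0.12 and 0.02 CPM. The SET complex, of which HMGB2 is a component, gave 0 calls among 4 tested of 5, and Set itself held 48.9 ± 4.76 and 52.0 ± 10.04 CPM.

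Cell cycle genes were measured in the same libraries. Of 51 G2 and mitosis genes 42 were tested, with a median difference of 1.99. In KO, 3 were called higher (Ect2, Nek2 and Kif11) and 0 lower, against 0.223% and 0.838% of all tested genes. Of 41 S phase genes 36 were tested, with a median of 1.41. Against the same shares, 2 were called higher (Nasp and Tipin) and 0 lower. Nasp, a histone chaperone, rose from 16.8 ± 3.99 to 32.3 ± 5.93 CPM (0.94 ± 0.20, edgeR adjusted p = 0.0432). Genes scarce in WT could pass the filter through the KO libraries alone, and the medians and calls include such genes. Ect2, Nek2 and Kif11 averaged only 0.56, 0.49 and 0.31 CPM in WT. With no filter on low counts, the medians were 2.05 over 51 G2 and mitosis genes and 1.22 over 41 S phase genes. The count of 3 was 25 with DESeq2, 0 with limma-voom, 21 without WT 2, 17 without KO 4 and 1 without KO 1, and it was 0 without any 1 of the other 5 libraries. That of 2 was 21 with DESeq2, 0 with limma-voom, 10 without WT 2, 12 without KO 4 and 0 without any 1 of the other 6. Both counts were 0 with the offsets, and the gene lists were chosen with earlier results of these data known. Over all tested genes, 325 of 11222 were called higher with DESeq2 and 142 of 11441 without WT 2. Without KO 4 it was 139 of 11456 genes, and without KO 1 it was 4 of 11490. With limma-voom, with the offsets and without any 1 of the other 5 libraries, 0 of all tested genes were called higher.

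The mean log2 CPM of the G2 and mitosis list, centred over the 8 libraries, was -1.26, 0.09, -1.11 and -1.15 in WT 1 to WT 4 and 0.90, 1.62, 1.00 and -0.09 in KO 1 to KO 4. The S phase list gave -0.63, -0.04, -1.04 and -0.81 in WT and 0.83, 1.44, 0.43 and -0.18 in KO. KO 2 was highest in both lists and KO 4 lowest among the KO libraries, as in 7 of 9 members (all but Hmgn3 and Cbx3). WT 2 was highest of the WT libraries in both lists, as in Hmgb1, Hmgb3, Hmgn2, Cbx3 and Cbx5 but not in Hmgb2, where WT 4 was highest.

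Markers of other myeloid cells differed between the KO libraries as well. The 12 neutrophil markers summed to 292 to 618 CPM in WT and to 2393, 3704, 814 and 630 CPM in KO 1 to KO 4, with S100a8 at 796, 1584, 73.9 and 39.6 CPM in KO and at most 48.6 CPM in WT. Ngp, a granule protein gene, held 108 and 86.8 CPM in KO 1 and KO 2 and at most 1.54 CPM in the other 6 libraries. Ly6g, which defines neutrophils, was highest in the same libraries, at a low level, with 1.08 and 0.92 CPM in KO 1 and KO 2 and at most 0.19 CPM in the others, and it was too low for the filter. Csf3r of the same list hardly differed, with means of 35.6 CPM in WT and 37.2 CPM in KO. The 8 progenitor markers summed to 41.3 to 61.6 CPM in WT and to 176, 261, 56.3 and 41.2 CPM in KO 1 to KO 4. Among them the granule genes Elane (means of 4.20 and 41.1 CPM) and Prtn3 (26.7 and 57.7 CPM) were higher in KO on average only. Elane held 56.8, 93.2, 11.1 and 3.25 CPM in KO 1 to KO 4, against 2.48 to 7.71 CPM in WT. Prtn3 held 81.7, 117, 18.0 and 13.7 CPM there, against 19.1 to 34.3 CPM in WT. Its levels in KO 3 and KO 4 thus lay below every WT library. Cd34 (1.70 and 1.68 CPM) and Flt3 (15.0 and 16.9 CPM) hardly differed. The part of neutrophils and progenitors in the members' values was not tested. Without KO 1 and KO 2, the 2 libraries with the highest sums of both lists, the KO minus WT difference was 0.69 ± 0.17 for Hmgb2, 1.07 ± 0.38 for Hmgb3, 0.34 ± 0.20 for Hmgn1, 0.93 ± 0.29 for Hmgn2 and 1.06 ± 0.28 for Cbx5 (log2, SE). All 9 members were then positive and 0 passed in edgeR, where 0 of 11801 tested genes were called higher and 7 lower. The medians of the G2 and mitosis list and of the S phase list were 1.42 and 0.66 there, with 0 calls in each.

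**Figure D5:**
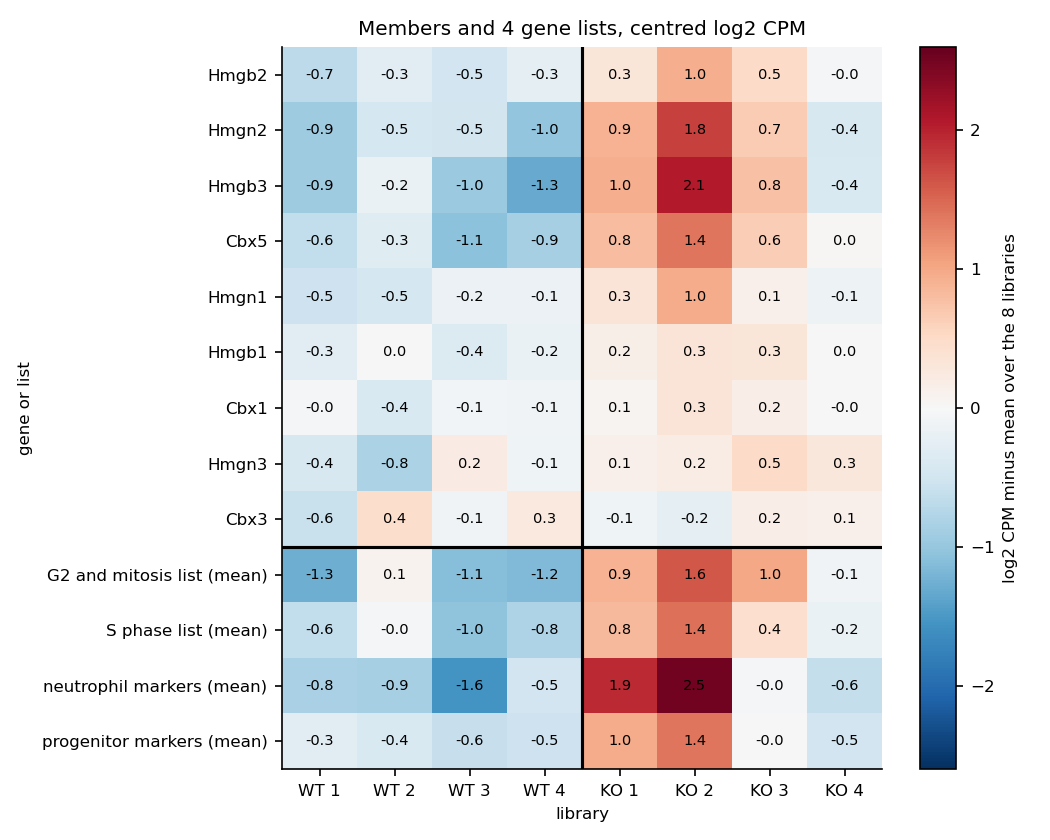
Log2 CPM of each member by library, and the mean over the tested genes of 4 gene lists, each centred on its mean over the 8 libraries (red above, blue below). The G2 and mitosis list runs from -1.26 in WT 1 to 1.62 in KO 2. By these means, of 5 tested markers each, the neutrophil and progenitor lists are highest in KO 2 and KO 1. KO 3 then lies above every WT library and KO 4 inside their range. The summed CPM in the text covers all markers of each list and can place KO 3 and KO 4 otherwise.

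Likeness within genotype was described by Pearson's r of log2 CPM after the mean of each genotype had been subtracted, over the 8 libraries, with no test. The libraries share depth and the same few extreme samples. Cbx5 and Hmgb3 had r = 0.96, Hmgb3 and Hmgn2 0.95, Cbx5 and Hmgn2 0.86 and Hmgb2 and Hmgn1 0.84. Cbx1 and Cbx3 had -0.68, and Cbx5 and Hmgn3 had -0.57. Genes without an official symbol were left out of the ranking by likeness. The 5 tested genes with one that were most like Cbx5 all had r = 0.98. They were Ccne1 (cyclin E1), Chek1 (a checkpoint kinase), Hmgn2-ps, Rfc3 (a clamp loader subunit) and Mcm6 (a subunit of the replicative helicase). Ccne1 held 2.52, 3.88, 1.73 and 1.74 CPM in WT and 10.7, 21.4, 6.03 and 3.11 CPM in KO, with WT 2 and KO 2 highest in their groups as for Cbx5. The 5 most like Hmgb2 were Cenpq (a centromere protein) at r = 0.97, Apip, Lrig2 and Eri2 at 0.96 and mt-Tc at 0.95. Cenpq held 5.86, 8.29, 6.86 and 9.99 CPM in WT and 18.0, 30.3, 17.3 and 9.98 CPM in KO, and KO 4 lay level with WT 4.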

How the data were processed

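Messenger RNA of the sorted monocytes was copied from oligo-dT primers with template switching (SMART-Seq v4) and amplified, per the labels' protocols. The deposited table holds raw counts of reads for each gene in 8 libraries. Per the submitters' processing notes, the build was GRCm38 and the tools were featureCounts 1.5.0-p3 and HISAT2 2.0.5. The annotation release, the strand setting and the treatment of reads that map to several places were not given in the sources used here. Amplified reads carry no molecular identifiers, so floors cover counting error only.

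The counts were tested with edgeR 4.0.16 (quasi-likelihood, robust, filterByExpr, TMM) under R 4.3.3. P-values were adjusted by Benjamini-Hochberg, with a threshold of 0.05, over 11222 genes that held 99.89% of the counts. The fits were of genotype alone, of genotype with number series, and of both with their interaction. SEs were taken from the fitted difference and its F statistic. The scripts were tested on simulated data. Counts of any 2 libraries of the same genotype varied beyond sampling noise, and each library was 1 replicate. Other settings tried were the scaling, the filter, DESeq2 1.42.0, limma-voom (limma 3.58.1), covariates, offsets for length and GC content (mgcv 1.9.3), libraries left out and the threshold, and summing pseudogene copies was added after seeing the data. GENCODE M21 (GRCm38) gave lengths, coordinates and pseudogenes for 52125 of the 56748 identifiers. Copies were found with BLAST+ 2.17.0.

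The members and gene lists were chosen with earlier results of these data known. The text names the members, their pseudogene copies and the divergent neighbour within 2000 bases. It also names the 5 genes with an official symbol most like Hmgb2 and Cbx5 each. Up to 4 genes per list with the smallest p were taken as well, of which not all are reported here. Suv39h1, Uhrf1, Sgo1, Chaf1b, Hmga1, Tlr2, Tlr4, Ager, Ly6g, Ngp and the marker genes named for their level were chosen for their role after their values were seen.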

Additional observations from a re-analysis of the deposited data

Results flagged for a closer look

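WT 2 stood apart from the other WT libraries in the mean of the G2 and mitosis list, at 0.087 on the centred log2 scale against -1.26, -1.11 and -1.15. The gap between it and the nearest WT library exceeded the 95% critical value of Dixon's test for 4 libraries. Of the 22 groups looked at (9 members and 2 cell cycle lists in both genotypes), about 1.1 would be singled out by chance (1 in 20). Members were looked at in CPM, where 0 passed. On the log2 scale WT 2 passed for Cbx1, where it held 14.9 CPM against 18.3 to 19.1 CPM in the other WT libraries.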

How the results depend on the processing

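The KO minus WT difference was positive for 8 members other than Cbx3 under every alternative run, and that of Cbx3 lay between -0.38 and 0.11. Differences ranged from 0.58 to 1.02 for Hmgb2 and from 1.06 to 1.78 for Cbx5. The number of genes called between KO and WT was 119 (25 higher, 94 lower). It was 742 without a filter on low counts, 784 with DESeq2, 0 with limma-voom (2371 genes with an unadjusted p under 0.05), 251 with the number series as covariate, 1 with offsets for length and GC content, 7 without KO 1 and KO 2, 611 at an adjusted p of 0.1, and between 0 and 515 with single libraries left out (0 without WT 1, WT 3, KO 2 or KO 3, 3 without WT 4, 64 without KO 1, 235 without KO 4 and 515 without WT 2). Between the number series it was 0, and 231 without a filter, 35 with DESeq2 and 0 to 4 with single libraries left out (4 without WT 2, otherwise 0). The interaction gave 88 calls, 645 without a filter, 451 with DESeq2, 57 with limma-voom, 293 at an adjusted p of 0.1 and 3 to 628 with single libraries left out (24 without WT 1, 5 without WT 2, 14 without WT 3, 628 without WT 4, 38 without KO 1, 10 without KO 2, 4 without KO 3 and 3 without KO 4). The cause of these shifts was not tested. With the title number as a replicate block, 244 genes were called (143 higher, 101 lower), 4 members among them. Over all tested genes, libraries of the same number did not deviate together (correlations of -0.01, -0.03, -0.05 and 0.09). Such a correlation over all genes cannot settle whether the numbers pair the libraries for the members, which was not tested. Levels of at most 8.11 CPM in WT add counting error for Hmgb3, Hmgn3, Cbx3 and Cbx5. The SE of the difference did not follow level, with 0.44 for Hmgn2 at 92.5 CPM in WT and 0.22 for Hmgn3 at 5.94 CPM.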
